A study of Mus musculus with 25 samples.

Results

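Expression of 8 T-box transcription factor genes was examined across the forming mouse palate. Tbx1, Tbx2, Tbx3, Tbx5, Tbx15, Tbx18, Tbx20 and Tbx22 were taken by gene symbol from a table of 37406 genes, in which 17 T-box genes were found in all. The rule that picks them is a list of symbols and uses no expression value, although the list was drawn up with earlier results of these data known. Tbx22 rose 7.70-fold from anterior to posterior palate and did not overlap between them in any compartment, with calls in lateral and nasal palate that were lost in 3 and 8 of 35 alternative settings. Tbx15 was lower in posterior than anterior medial palate and Tbx18 in posterior than anterior nasal palate, and Tbx2 differed among the 8 compartments, calls that were lost in 24, 12 and 10 of 35 alternative settings. Tbx3 was at 13.4 to 53.2 RPKM in all libraries with no difference called, and Tbx1, Tbx5 and Tbx20 were low.

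T-box proteins bind DNA through a conserved domain, the T-box, first described in Brachyury, and act as activators or repressors of transcription in the patterning of the embryo. Tbx1, Tbx15, Tbx18, Tbx20 and Tbx22 belong to the Tbx1 subfamily, and Tbx2, Tbx3 and Tbx5 to the Tbx2 subfamily. In the palate the best known member is Tbx22, on the X chromosome, whose loss in people causes cleft palate with ankyloglossia (a tongue tied to the floor of the mouth).

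All libraries came from wild type CD1 mouse embryos (an outbred strain) at E14.5, soon after the palatal shelves meet. Laser capture microdissection gave 25 RNA-Seq libraries. They cover 8 compartments (medial, lateral, oral and nasal, each in anterior and posterior palate), and each compartment has 3 replicates, except anterior nasal with 4. Medial with lateral, and oral with nasal, are different partitions of the same shelves. The labels do not tie libraries to embryos, so whether compartments share an embryo is not given. The alignment names of 4 libraries carry Tgfbr2_WT and those of 2 carry ERK2_WT, although the labels give the same strain and genotype for all 25. In anterior nasal palate the alignment name of replicate 1 carries Zymo and that of replicate 2 carries SDS. The part of these tags in the values was not tested.

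Expression is given in RPKM, a measure of reads that is scaled to transcript length and to the mapped reads of the library, as deposited. Relative depth ran from 0.502 to 2.01 of the median library. The libraries came from 8 sequencing runs. Posterior medial replicate 2 had the fewest genes above 0 RPKM, 12935 against up to 20605 elsewhere. It correlated with its replicates at r = 0.61 to 0.69 across genes, and anterior oral replicate 1 with its own at 0.66 to 0.74, the lowest values. The 8 genes that mark palatal mesenchyme were above 0 in every library and summed to 564 to 853 RPKM. Epithelial markers summed to 16.6 to 127 RPKM, with 7 of 8 above 0 in every library.

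In the deposited coordinates (mm9) the gene of Tbx22 (gene ID 245572) spans positions 104863303 to 104884319 of chromosome X. Tbx15 (21384) spans 99057683 to 99158183 of chromosome 3, and Tbx18 (76365) 87597635 to 87626095 of chromosome 9. Tbx20 (57246) lies at 24527648 to 24578746 of chromosome 9, and Tbx1 (21380) at 18581806 to 18590764 of chromosome 16. Tbx2 (21385) spans 85646117 to 85655450 of chromosome 11. Tbx3 (21386), at 120120678 to 120134610, and Tbx5 (21388), at 120284672 to 120335227, both lie on chromosome 5. Each value is 1 total over a gene's exons, so transcript forms and start sites are not separated.

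The sequence upstream of Tbx22 is shown because Tbx22 carried the largest difference among the members. It is the 250 bases before 1 of 3 starts that RefSeq lists, at chrX:107667714-107667963 on the plus strand of GRCm38.p6, a later build than that of the table, with 49.6% G and C.
Tbx22 upstream: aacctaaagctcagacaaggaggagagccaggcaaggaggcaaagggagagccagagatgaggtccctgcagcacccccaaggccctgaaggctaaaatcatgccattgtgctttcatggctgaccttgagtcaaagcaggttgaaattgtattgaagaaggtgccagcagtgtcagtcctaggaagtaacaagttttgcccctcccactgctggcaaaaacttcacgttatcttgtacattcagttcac
The T-box half-site GGTGTGA, searched on both strands, was in 3.98% of 32851 RefSeq promoter windows. Unlike the stretch shown, these windows also took in bases after the start. It was in 0 of the 7 windows listed for 4 members (Tbx1, Tbx18, Tbx20 and Tbx22), which says only that these letters are not in those windows.

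In every library Tbx2 and Tbx3 were at 10 RPKM or more, and in 12 libraries, all of them posterior, so was Tbx22. Tbx15 reached 10 RPKM in 9 libraries, 8 of them anterior. Tbx18 reached 5 RPKM in 7 libraries and 10 RPKM in none, Tbx5 reached 5 RPKM in 1, and Tbx1 and Tbx20 did so in none. Highest of all by RPKM was Tbx22 in posterior medial palate.

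**Figure D1:**
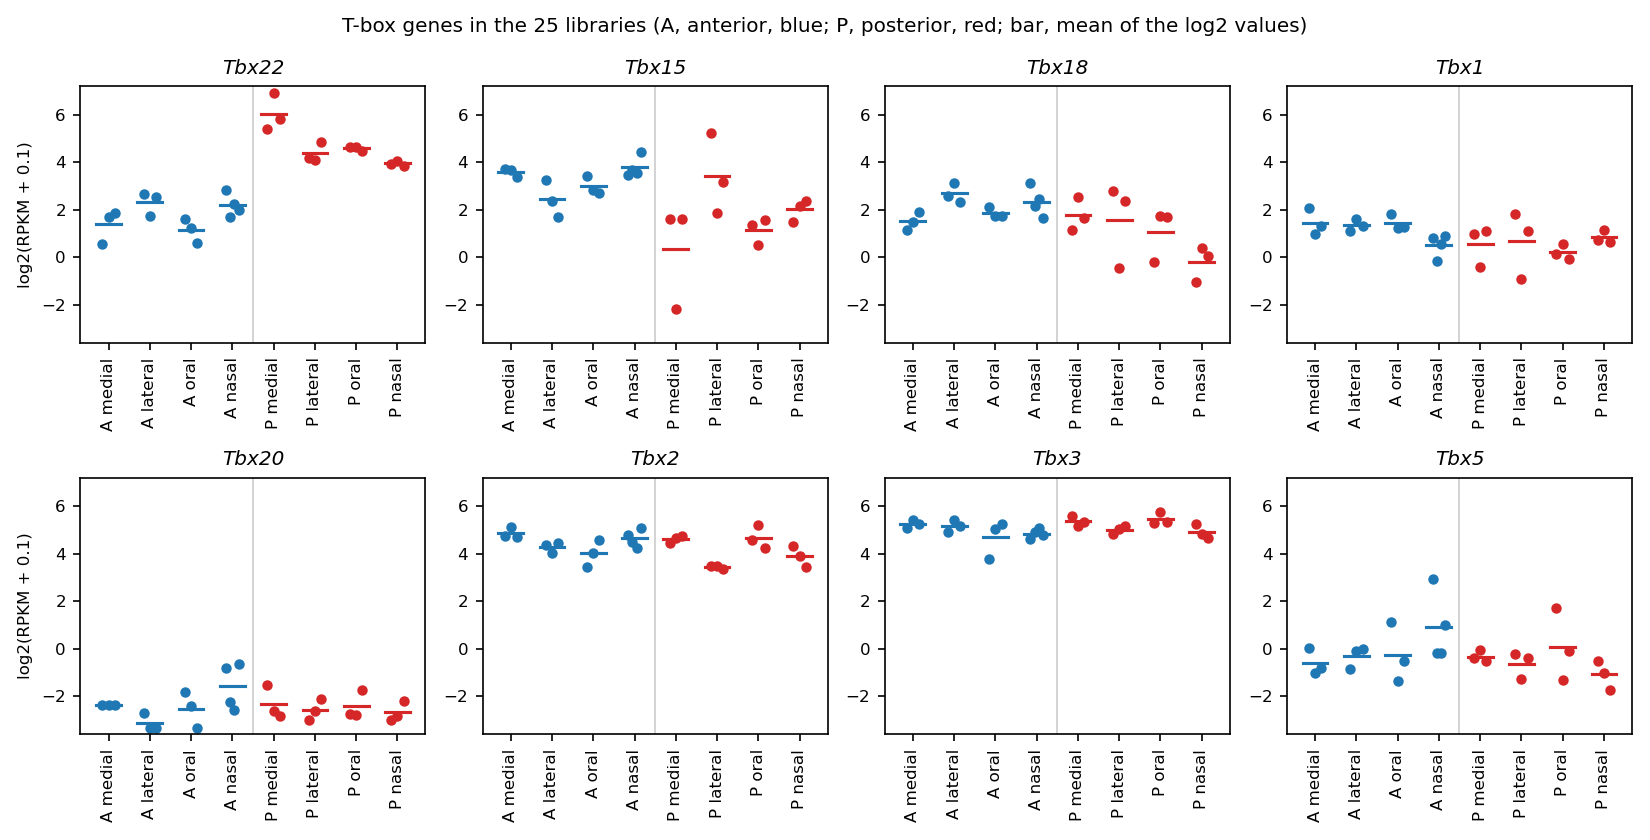
Expression of the 8 T-box genes in 25 libraries, as log2(RPKM + 0.1), by compartment (A, anterior, blue; P, posterior, red). Each point is a library and each bar the mean of the log2 values of a compartment. Tbx22 is at 14.1 RPKM or more in all posterior and at 7.06 or less in all anterior libraries. Tbx3 ranges from 13.4 to 53.2 RPKM.

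To compare anterior with posterior palate, all 13 anterior libraries were set against all 12 posterior ones, for those genes that reached 10 RPKM in 6 or more libraries. Of the 8 members 4 met this minimum. Tbx22 was the only 1 of these with an adjusted p under 0.05 (limma, Benjamini-Hochberg over all genes), where 3.32% of the 8608 genes tested passed. Tbx22 met the minimum only through its posterior libraries. The median difference of the 4 members was -0.05 on the log2 scale against 0.03 for all genes.

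Tbx22, a repressor needed for the formation of the hard palate, ranged from 1.38 to 7.06 RPKM in the anterior libraries, with a median of 3.26. In the posterior libraries it ranged from 14.1 to 120 RPKM, with a median of 23.5. The groups did not overlap. The anterior mean was 3.73 ± 1.74 RPKM (SD, n = 13) and the posterior mean 33.2 ± 29.8 RPKM (SD, n = 12). The log2 difference was 2.94 (standard error 0.31, 95% confidence interval 2.31 to 3.58, limma adjusted p = 4.24e-07). In the 3 sequencing runs that held both regions the log2 difference was 3.00, 3.79 and 1.73, with no overlap in any. All anterior libraries of the second run were medial, and the last held only 1 anterior library, a lateral one. In both runs the posterior libraries came from other compartments too, so compartment and region were mixed. As these are bulk libraries, fewer cells of a type and less RNA per cell cannot be told apart.

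Within the posterior palate the medial compartment held the most Tbx22, at 41.4, 120 and 55.8 RPKM. The highest of these was in replicate 2, the library with the fewest genes above 0 RPKM. Posterior oral palate followed with 24.7, 25.1 and 22.2 RPKM, and posterior lateral palate overlapped it at 17.7, 17 and 28.8 RPKM. Posterior nasal palate was lowest of the 4, at 15.2, 16.6 and 14.1 RPKM. The medial libraries were thus all above the other posterior ones, and the nasal ones all below them.

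In the anterior palate the levels were low and the compartments were close. Anterior lateral libraries had 6.12, 3.26 and 5.69 RPKM of Tbx22, and anterior nasal ones 7.06, 3.11, 4.66 and 3.9. Anterior medial libraries had 1.38, 3.17 and 3.58 RPKM, and anterior oral ones 2.91, 2.23 and 1.4. From highest to lowest mean these were lateral, nasal, medial and oral, and each overlapped the next. The compartment with the most Tbx22 in the posterior palate, the medial one, was thus below lateral and nasal in the anterior.

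To see whether the difference held in each compartment, posterior was compared with anterior separately in medial, lateral, oral and nasal palate, in a fit of all 25 libraries for the 11913 genes that reached 5 RPKM in 3 or more libraries. Of the 8 members 5 met this minimum, and 3 passed in at least 1 compartment (Tbx22, Tbx15 and Tbx18). The share of all genes that passed was 1.66% in medial, 0.865% in lateral, 0.512% in oral and 1.91% in nasal palate. The median difference of all genes was -0.12, -0.03, 0.11 and 0.11 on the log2 scale in the same order.

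Tbx22 was higher in posterior palate in all 4 compartments. The difference was 24.9-fold in medial (log2 4.64, standard error 0.40, limma adjusted p = 1.15e-06) and next largest in oral palate (log2 3.46, standard error 0.40, adjusted p = 0.000144). It was smaller in lateral palate, at 4.17-fold (log2 2.06, standard error 0.40, adjusted p = 0.0121), and in nasal palate, at 3.37-fold (log2 1.75, standard error 0.38, adjusted p = 0.0173). Without posterior medial replicate 2 the medial log2 difference was 4.20 and still passed. With the sequencing run as a covariate the lateral and nasal differences were 1.94 and 2.20, but no longer passed (adjusted p = 0.773 and 0.280). Without anterior lateral replicate 2 or posterior lateral replicate 3 the lateral adjusted p was 0.109 and 0.0971. The nasal one was 0.0765 with the replicate number as a block, 0.0519 with each library centred on its median, and 0.0534 to 0.0840 without anterior nasal replicate 2 or 4 or any 1 of the posterior nasal libraries.

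**Figure D2:**
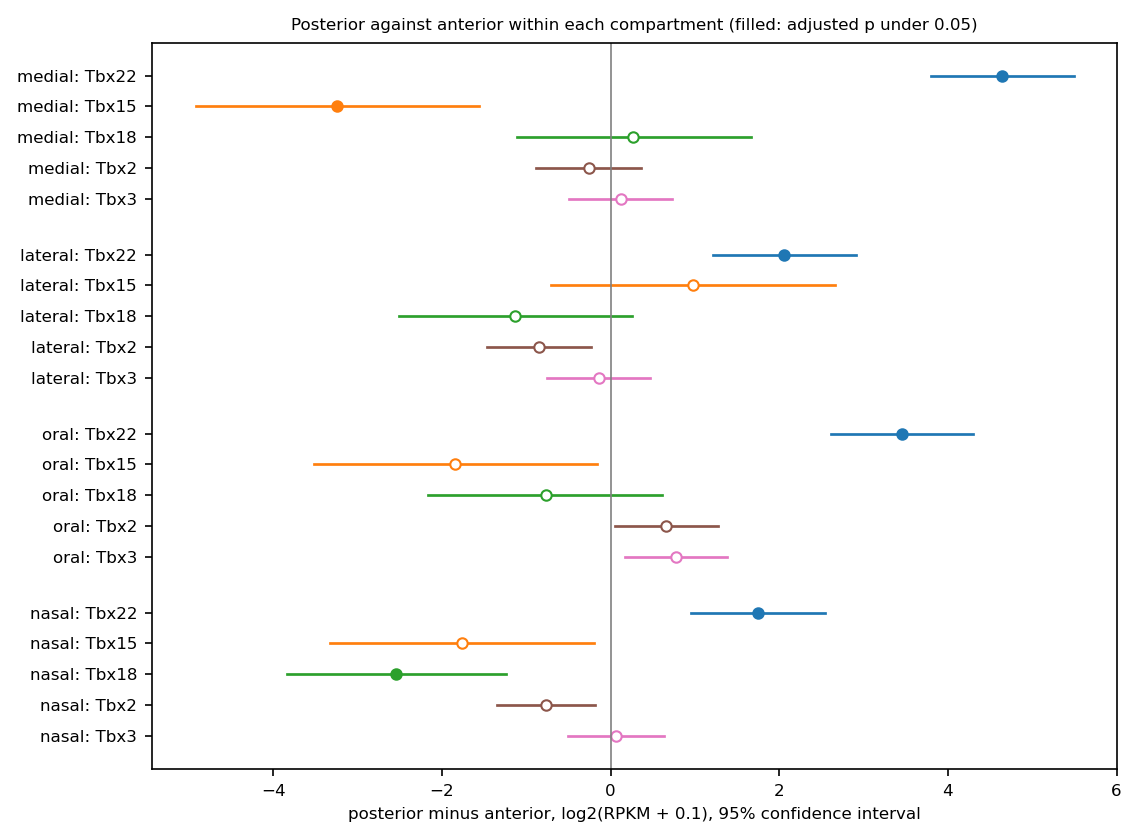
Posterior minus anterior difference of log2(RPKM + 0.1) in each compartment for the 5 T-box genes above the expression minimum, with 95% confidence intervals. Filled points have a limma adjusted p under 0.05; the 4 intervals of Tbx22 are above 0, from 1.75 in nasal to 4.64 in medial palate, and 2 other filled points, Tbx15 in medial and Tbx18 in nasal palate, are below 0.

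Tbx15 acts in the development of the skull, limb skeleton and dermis. In the anterior palate it was at 13, 12.5 and 10.2 RPKM in medial, 9.3, 5.07 and 3.13 in lateral, and 10.7, 7 and 6.32 in oral libraries. Anterior nasal libraries had 11, 12.5, 11.5 and 21.4 RPKM. All 13 were above 3 RPKM.

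In the posterior palate Tbx15 was at 2.96, 0.119 and 2.91 RPKM in medial and 2.48, 1.31 and 2.85 in oral libraries. Posterior nasal libraries had 2.73, 4.38 and 5.11 RPKM, and posterior lateral ones 36.8, 3.53 and 8.92. Medial, oral and nasal libraries thus lay below those of the same anterior compartment, with no overlap. The share of all genes without overlap was not counted, and only the medial difference passed. The lateral libraries did not follow, with the highest Tbx15 of all 25 in posterior lateral replicate 1.

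Over all libraries the anterior mean of Tbx15 was 10.3 ± 4.56 RPKM (SD, n = 13) and its posterior mean 6.18 ± 9.89 RPKM (SD, n = 12). The log2 difference of -1.51 (standard error 0.48) did not pass (limma adjusted p = 0.0930). Without posterior lateral replicate 1 it was -1.83 (adjusted p = 0.00829), but Tbx15 then met the minimum only through its anterior libraries. Posterior lateral replicate 1 was the only library of its run and carries ERK2_WT in its alignment name. Its 8 skeletal muscle markers summed to 119 RPKM, against 14.9 and 25.6 in the other posterior lateral libraries, with none at 0, Actc1 at 53.3 and Myh3 at 40.2 RPKM. Their part in the Tbx15 value was not tested.

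By compartment, Tbx15 was 9.45-fold lower in posterior than anterior medial palate (log2 -3.24, standard error 0.80, limma adjusted p = 0.0432). Without posterior medial replicate 2, at 0.119 RPKM, the difference was -1.98 (adjusted p = 0.227), and the call was made in 11 of 35 alternative settings. In oral and nasal palate the differences were -1.84 (adjusted p = 0.661) and -1.76 (adjusted p = 0.344). In lateral palate it was 0.98 (95% confidence interval -0.70 to 2.66, adjusted p = 1.00), of the opposite sign. Within the 3 runs holding both regions the posterior minus anterior difference was -2.12, -2.85 and 0.78, and all libraries of the last were lateral or posterior nasal.

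Tbx18 marks mural cells of blood vessels and is needed in somites, ureter and sinus node. It was highest in anterior lateral palate, at 5.94, 8.61 and 4.91 RPKM, and in anterior nasal palate, at 8.66, 4.31, 5.3 and 3.06. Anterior oral libraries had 4.17, 3.23 and 3.18 RPKM and anterior medial ones 2.14, 2.66 and 3.6. The anterior libraries of Tbx18 were thus all above 2 RPKM.

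Posterior nasal palate held the least Tbx18, at 0.387, 1.22 and 0.938 RPKM. The other posterior libraries were spread over a wide range, with 2.14, 5.73 and 2.99 RPKM in medial, 6.69, 0.628 and 5.04 in lateral, and 0.781, 3.24 and 3.09 in oral palate. Posterior nasal libraries lay below all anterior nasal ones, and the difference was 5.80-fold (log2 -2.54, standard error 0.62, limma adjusted p = 0.0382). It was -3.06 with run as a covariate (adjusted p = 0.210) and -2.76 with the replicate block (adjusted p = 0.0668). The run that held both nasal regions had a difference of -2.70, with 1 library of each. The call also missed the threshold without any 1 of the posterior nasal libraries or anterior nasal replicate 1, 2 or 3 (-2.11 to -2.83, adjusted p = 0.0635 to 0.276). In medial, lateral and oral palate the differences were 0.27, -1.13 and -0.77, none of which passed.

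Of 6 markers of pericytes and smooth muscle 1 (Abcc9) passed, as lower in posterior nasal palate (limma). Their sum was 67.2 to 150 RPKM in anterior and 38.6 to 50.8 in posterior nasal libraries, with all 6 above 0, and Rgs5 was 12.8 to 32.5 against 2.75 to 3.78 RPKM. The same sum was also lower, without overlap, in posterior lateral (27.9 to 40.5 against 119 to 123 RPKM) and oral palate (48.5 to 61.9 against 94.6 to 138 RPKM), where Tbx18 did not pass. Of 4 osteoblast markers tested 2 were higher in posterior nasal palate, where 1.91% of all genes passed in either direction, and the markers of the list summed to 280 to 452 RPKM in posterior and 44 to 70.4 in anterior nasal libraries. The part of either in the Tbx18 difference was not tested. Over all libraries the anterior mean of Tbx18 was 4.6 ± 2.09 RPKM (SD, n = 13) and its posterior mean 2.74 ± 2.13 RPKM (SD, n = 12), but the gene was under the minimum of that comparison. With the minimum lowered to 1 RPKM the log2 difference from anterior to posterior was -1.06 (limma adjusted p = 0.137). Under the same lower minimum that of anterior lateral against medial palate was 1.18, higher in lateral (adjusted p = 0.112). Neither passed.

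Tbx2, a repressor that acts in limb, heart and palate growth, was at 10 to 36.7 RPKM. Posterior lateral palate held the least, at 10.9, 11 and 10 RPKM, and posterior nasal palate had 20, 14.8 and 10.8. In anterior oral libraries it was at 10.8, 16 and 23.9 RPKM and in anterior lateral ones at 20.2, 16 and 21.8. The posterior lateral libraries were low and close together, with a mean of 10.6 ± 0.522 RPKM (SD, n = 3).

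Higher levels of Tbx2 were found in anterior medial palate, at 26.9, 34.4 and 26.2 RPKM, and in posterior medial palate, at 21.6, 24.8 and 26.4. Posterior oral libraries had 23.8, 36.7 and 18.9 RPKM, and anterior nasal ones 27.3, 22.6, 19 and 33.3. In the order of means each compartment overlapped the next.

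To ask which members varied anywhere among the 8 compartments, the compartment means were compared in 1 test. Of the 5 members above the minimum 2 passed, Tbx22 and Tbx2, where 4.42% of 11913 genes did. Tbx22 had a largest difference of 4.90 between compartment means on the log2 scale (limma adjusted p = 6.72e-07), and Tbx2 of 1.44 (adjusted p = 0.0290). The Tbx2 call was lost with run as a covariate (adjusted p = 0.535), with the replicate block (0.0623), with no minimum (0.0615), and without any 1 of the anterior medial or posterior lateral libraries or posterior nasal replicate 2 (0.0514 to 0.101). Tbx15 (adjusted p = 0.0532), Tbx18 (adjusted p = 0.165) and Tbx3 (adjusted p = 0.703) did not pass, with largest differences of 3.44, 2.88 and 0.78. Tbx15 passed in 10 of 35 alternative settings, and Tbx18 in 1 (without posterior lateral replicate 2, adjusted p = 0.0128).

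Tbx3, a close relative of Tbx2 whose loss affects limb and mammary gland in ulnar-mammary syndrome, was expressed throughout. It ranged from 13.4 to 53.2 RPKM with a median of 35.7. Posterior oral libraries were highest, at 39.1, 53.2 and 40.2 RPKM, followed by posterior medial ones at 48, 35.9 and 40.1. The lowest mean was in anterior oral palate, with 13.4, 32.7 and 37.9 RPKM, where the first replicate was below all other libraries.

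For Tbx3 the anterior mean was 32.3 ± 7.86 RPKM (SD, n = 13) and the posterior mean 37 ± 8.08 RPKM (SD, n = 12). The log2 difference was 0.22 (95% confidence interval -0.10 to 0.53, limma adjusted p = 0.542). For Tbx2 it was -0.32 (95% confidence interval -0.75 to 0.11, adjusted p = 0.516), from an anterior mean of 23 ± 6.8 RPKM (SD, n = 13) to a posterior one of 19.1 ± 8.14 RPKM (SD, n = 12). In single compartments neither gene passed. By limma the nearest were Tbx2 in nasal palate, at -0.76 (adjusted p = 0.237), and Tbx3 in oral palate, at 0.78 (adjusted p = 0.567). The largest difference of Tbx2 was in lateral palate, at -0.85 (adjusted p = 0.396).

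Lateral was then compared with medial palate, using only the libraries of each pair and genes that reached 5 RPKM in 3 or more of them. In the anterior palate 0 of the 3 members tested passed (limma), where 2.51% of genes did. At an unadjusted p under 0.05 there were 2 members, and 1566 of all 10427 genes. They were Tbx15 (log2 -1.15, lower in lateral palate, standard error 0.35, adjusted p = 0.164) and Tbx2 (log2 -0.59, standard error 0.17, adjusted p = 0.134). Each had no overlap, but the share of all genes without overlap was not counted. Without anterior lateral replicate 1 the Tbx15 difference was -1.55 (adjusted p = 0.0356). Tbx3 differed by -0.10 (95% confidence interval -0.48 to 0.29). It was 0.04 without the same replicate and 0.29 with run as a covariate, where Tbx2 was 0.21.

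In the posterior palate 0 of 4 members passed, and 0.00% of all 10324 genes (limma). At an unadjusted p under 0.05 there were 2 members (Tbx2 and Tbx22), and 1.54% of all genes. Tbx2 was 2.27-fold lower in lateral palate (log2 -1.18, standard error 0.25, adjusted p = 0.957), and Tbx22 was 3.16-fold lower (log2 -1.66, standard error 0.47, adjusted p = 0.957). Neither overlapped between the groups, and nor did Tbx3, with 28.3 to 35.7 RPKM in lateral and 35.9 to 48 in medial palate. Here too the share of all genes without overlap was not counted. Tbx3 (-0.35, standard error 0.27) and Tbx18 (-0.22, 95% confidence interval -2.40 to 1.95) had an adjusted p of 0.957 and 0.974. No run held both lateral and medial libraries of the same region, so run and compartment cannot be told apart here.

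For oral against nasal palate in the anterior, 0 of 3 members passed, and 0.00% of all 10684 genes (limma). At an unadjusted p under 0.05 there was 1 member (Tbx15), and 2.98% of all genes. Tbx15 was lower in oral palate (log2 -0.79, standard error 0.32, adjusted p = 1.00), with 10.7 RPKM at most against at least 11. Tbx2 differed by -0.64 (95% confidence interval -1.40 to 0.13) and Tbx3 by -0.16 (95% confidence interval -1.02 to 0.70). The sign of the latter turned to 0.31 without anterior oral replicate 1.

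In the posterior palate 0 of 3 members passed, where 1.25% of genes did (limma). At an unadjusted p under 0.05 there were 2 members, and 847 of all 10586 genes. Tbx22 was 1.57-fold higher in oral than in nasal palate (log2 0.65, standard error 0.20, adjusted p = 0.264), with no overlap, and the difference was 0.70 and 0.51 in the runs that held both. Tbx2 was 1.72-fold higher (log2 0.79, adjusted p = 0.559) and Tbx3 1.46-fold (log2 0.55, 95% confidence interval -0.00 to 1.10, adjusted p = 0.632). Tbx3 had no overlap either, with 39.1 to 53.2 RPKM in oral and 25 to 37.3 in nasal palate. The share of all genes without overlap was not counted.

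**Figure D3:**
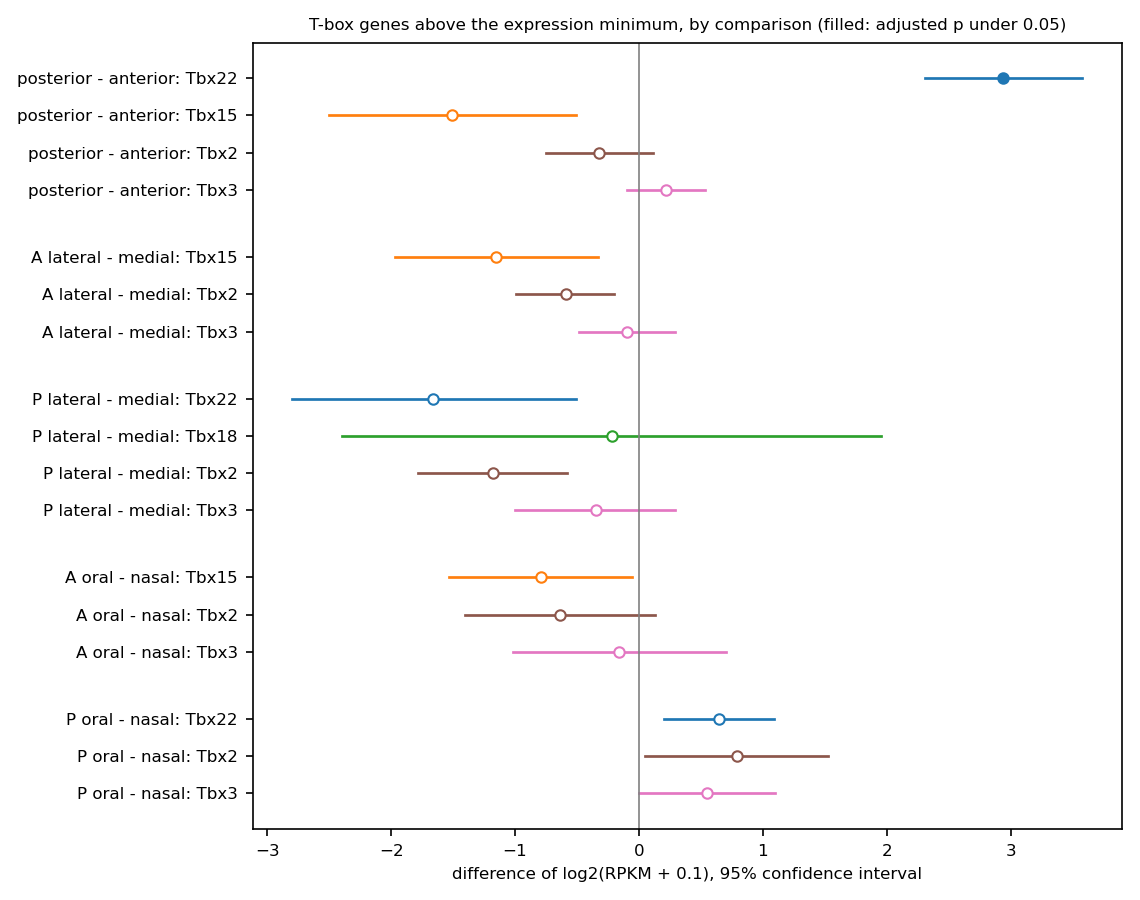
Differences of log2(RPKM + 0.1) for each T-box gene above the expression minimum of a comparison, with 95% confidence intervals (A, anterior; P, posterior). Tbx22 from anterior to posterior, at 2.94, is the only filled point (limma adjusted p under 0.05); open points did not pass.

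The order of compartments was not always the same in the anterior and the posterior palate. Tbx22 was lower in oral than nasal palate in the anterior, with a log2 difference of -1.06 (under the minimum of that pair), and higher in the posterior (log2 0.65). In the 3 runs that held both anterior compartments it was also lower in oral palate, at -1.42, -0.67 and -1.03. The change of 1.71 (standard error 0.42) did not pass the test over all genes (limma adjusted p = 0.342). Here 0 of 4 members passed, and 0.0350% of 11442 genes, with 2 of the 4 members (Tbx22 and Tbx2) and 3.38% of genes at an unadjusted p under 0.05. Tbx2 changed by 1.42 (adjusted p = 0.913), Tbx3 by 0.71 and Tbx15 by -0.08.

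For lateral against medial palate 0 of 5 members passed, and 0.00902% of 11089 genes, with 2 of the 5 members and 3.36% of genes at an unadjusted p under 0.05 (limma). Tbx15 was lower in lateral palate in the anterior (log2 -1.15) and higher in the posterior (log2 3.08, under the minimum of that pair), a change of 4.22 (standard error 1.49, adjusted p = 0.964). It was 2.96 without posterior medial replicate 2. For Tbx22 the posterior lateral palate was below the medial and the anterior lateral mean above the medial, a change of -2.58 (standard error 0.67, adjusted p = 0.637). Tbx18 (-1.40), Tbx2 (-0.59) and Tbx3 (-0.26) had an unadjusted p over 0.05. Among genes at 1 RPKM or more in 3 or more of the libraries, the order was opposite with no overlap in 1 of 6 members (Tbx15) and 0.444% of all genes for lateral against medial palate. For oral against nasal palate this was so in 2 of 7 members (Tbx22 and Tbx1) and 0.354% of all genes.

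**Figure D4:**
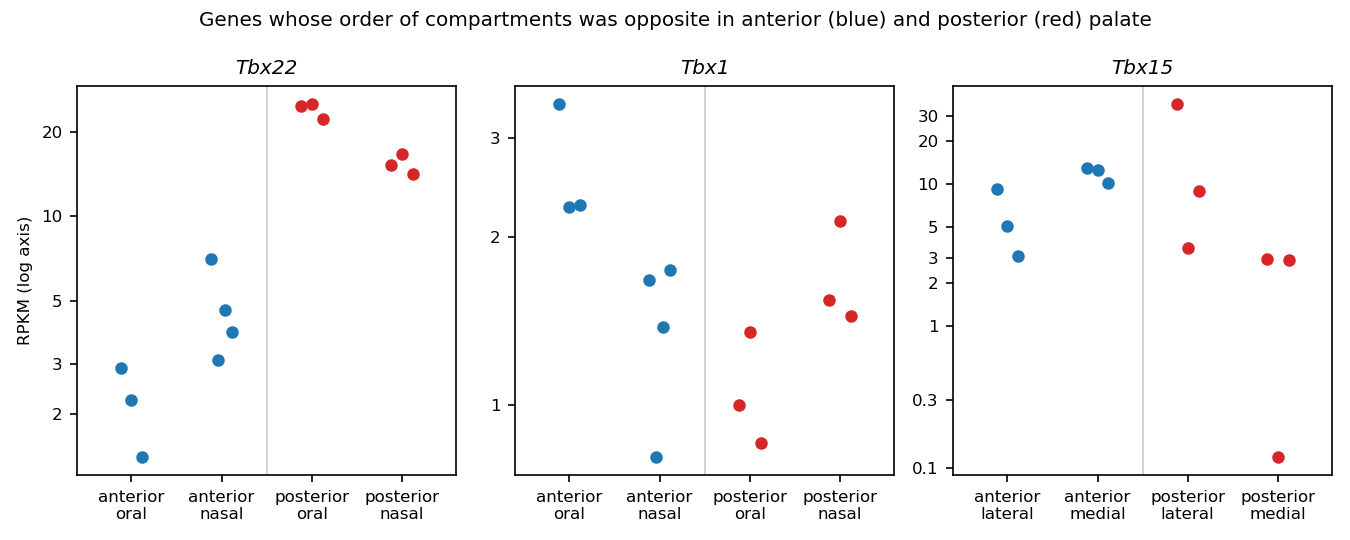
RPKM (log axis) of 3 T-box genes whose order of compartments was opposite in anterior (blue) and posterior (red) palate, 1 point per library. Tbx22 and Tbx1 are plotted in oral and nasal, Tbx15 in lateral and medial palate; the paired groups do not overlap within a color, and none of the 3 changes passed (limma adjusted p 0.342, 0.486 and 0.964).

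Tbx1, the gene whose loss accounts for much of DiGeorge syndrome, was low, at 0.433 to 4.1 RPKM. As estimated from the step between low values, 2 to 39 reads per library lay behind it, with a median of 12. Anterior oral libraries had 3.46, 2.26 and 2.28 RPKM and anterior nasal ones 1.67, 0.805, 1.38 and 1.74. In posterior palate the order was the other way, with 1, 1.35 and 0.853 RPKM in oral and 1.54, 2.13 and 1.44 in nasal libraries. With a minimum lowered to 1 RPKM the oral minus nasal difference was 0.91 in the anterior and -0.63 in the posterior palate, a change of -1.54 (limma adjusted p = 0.486). From anterior to posterior the difference was -0.57 (adjusted p = 0.273), with an anterior mean of 2.25 ± 0.867 RPKM (SD, n = 13) and a posterior mean of 1.56 ± 0.808 RPKM (SD, n = 12).

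Tbx5, which is required for forelimb and heart and is mutated in Holt-Oram syndrome, was at 0.202 to 7.45 RPKM with a median of 0.654. An estimated 2 to 78.5 reads lay behind it, with a median of 9. Anterior nasal replicate 1 had 7.45 RPKM, while the other anterior nasal libraries had 0.793, 0.787 and 1.9. Posterior oral replicate 1 followed with 3.19 RPKM against 0.296 and 0.826 in its replicates. The highest values thus stood in single libraries. All 4 anterior nasal libraries were above the posterior nasal ones, at 0.604, 0.395 and 0.202 RPKM, and with the minimum lowered to 1 RPKM this difference was -1.98 (limma adjusted p = 0.251).

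Tbx20, a heart factor, was at 0 to 0.54 RPKM and listed at 0 in 3 libraries. An estimated 0 to 14.62 reads per library lay behind it, with a median of 2. With no minimum the differences of Tbx20 nearest to the threshold were -0.73 for anterior lateral against medial (limma adjusted p = 0.237) and -1.11 for posterior against anterior nasal palate (adjusted p = 0.304). The highest values were 0.54 and 0.472 RPKM in anterior nasal replicates 4 and 1.

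For the 5 members that reached 5 RPKM in 3 or more libraries, the genes most like each were taken by Pearson's r of log2(RPKM + 0.1) over the 25 libraries, among 11913 genes. The libraries share runs and compartments, so r is given as a description. For Tbx22 they were Meox2 (r = 0.93), a homeobox gene of the posterior palate, Flrt2 (0.90), Trim9 (0.89), Chsy3 (0.87) and Tpd52l1 (0.84). For Tbx15 they included Dnm3 (0.85), Vav3 (0.84), Rbm41 (0.83) and 5730455P16Rik (0.81). Tbx18 was most like AW551984 (0.83), Fibin (0.78), Col3a1 (0.76), a fibrillar collagen, Itga4 (0.76) and Gbp9 (0.75).

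For Tbx3 the nearest genes were Serinc2 (0.90), Pld3 (0.88), Zfp777 (0.87), Wbp1 (0.87) and Rnf31 (0.86). Those of Tbx2 were less close, with Wipi1 (0.73), Klhl25 (0.73), Sik1 (0.73), 1810048J11Rik (0.71) and 6330416G13Rik (0.70). Among the members, Tbx2 and Tbx3 had r = 0.47, and Tbx22 and Tbx15 had r = -0.65.

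A list of 32 genes known as regulators, partners or targets of T-box factors in development was set beside the members. From anterior to posterior 17 met the minimum, of which 2 were higher and 5 lower in posterior palate and 10 did not pass (limma), where 3.32% of all genes passed. The median over the list was -0.09, and 0.03 over all genes. Higher were Barx1 (log2 4.72, adjusted p = 2.28e-07) and Meox2 (log2 3.57, adjusted p = 4.41e-09), homeobox genes of the posterior palate. Lower were the homeobox genes Alx1 (-5.77), Msx1 (-4.45) and Shox2 (-3.66), the coactivator Eya1 (-2.41) and the ligand gene Bmp2 (-0.73). Msx1, Shox2, Barx1 and Meox2 are known to mark these regions and were also chosen as checks of the axis, and their direction fitted the labels. As the list holds these markers, its count is no result about regulators, partners or targets of T-box factors.

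In the anterior palate Msx1 (log2 1.90) and Osr2 (log2 0.96) were higher and Bmp2 (log2 -0.94) lower in lateral than medial palate, among 17 genes of the list tested, where 2.51% of all genes passed. In the posterior palate Fgf10 was higher (log2 2.04) and Cdkn1a, a cell cycle inhibitor, lower (log2 -2.27) in oral than nasal palate, among 17 tested, where 1.25% of all genes passed. None of 15 passed for posterior lateral against medial and none of 21 for anterior oral against nasal palate (limma), where no gene of the whole table passed either.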

How the data were processed

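The authors deposited RPKM values for 37406 genes in 25 libraries, from single-end reads of 50 bases without duplicate reads and without those that aligned more than once, so a gene with near-identical copies can be understated. The build mm9 and the aligner TopHat come from the submitters' processing notes. Library preparation amplified the RNA, and no use of strand is stated. Depth of libraries relative to each other, and the reads behind Tbx1, Tbx5 and Tbx20, were worked out from the steps between low values. Counting error is the least error of such values.

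Groups came from the sample labels and runs from the alignment names in the authors' column headers. Tests were made with limma 3.58.1 (R 4.3.3) on log2(RPKM + 0.1), fitted on all genes above the minimum given beside each comparison, without covariates, with Benjamini-Hochberg adjustment and a threshold of 0.05. Fold changes on this scale understate those of low genes. A gene under the minimum has values and no main test. The share of all genes without overlap between groups was counted only for an opposite order. All 8 members were named, with the 5 genes most like each of the 5 members that reached 5 RPKM in 3 or more libraries (1 of those of Tbx15 is not reported here), other T-box genes by range, and genes of a fixed list that passed. The members and lists were chosen with earlier results of these data known. Alternatives were other pseudocounts (0.01 and 1), centring, quantile normalization, a mean-variance trend, other minimums, run or compartment as a covariate, the replicate number as a block, 1 fit of all libraries, and leaving out each library. A further one, without posterior medial replicate 2 and anterior oral replicate 1, was chosen after seeing the data. Figures were made with Python 3.11.15 and matplotlib 3.10.9.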

Additional observations from a re-analysis of the deposited data

Results flagged for a closer look

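In anterior nasal palate, the only compartment with enough libraries for this check, 1 library stood far from the others for 2 of the members. For Tbx5 the gap of the highest library (replicate 1, 7.45 RPKM) to the next was 0.833 of the whole range, and for Tbx15 that of replicate 4 (21.4 RPKM) was 0.856. Chance alone marks about 1 in 20 such groups if values are normally distributed. The check was made on RPKM without a log, and the share of all genes it marks was not counted. The alignment name of the first carries the word Zymo and that of the second Tgfbr2_WT, and their part in these values was not tested.

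For 3 members every library of a compartment lay on 1 side of its partner in the anterior palate and on the other side in the posterior palate. Such an opposite order was found in 0.444% of all genes for lateral against medial and 0.354% for oral against nasal palate. The oral minus nasal difference of Tbx22 went from -1.06 to 0.65, a change of 1.71 (limma adjusted p = 0.342), and that of Tbx1 from 0.91 to -0.63, a change of -1.54 (adjusted p = 0.486, with the lower minimum). The lateral minus medial difference of Tbx15 went from -1.15 to 3.08, a change of 4.22 (adjusted p = 0.964), or 2.96 without posterior medial replicate 2. All are on the log2 scale, and none passed the test of the change itself.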

How the results depend on the processing

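The anterior to posterior difference of Tbx22 passed in all 36 alternatives (2.64 to 3.58, adjusted p at most 0.000405), as did its differences in medial (4.20 to 4.97) and oral palate (3.00 to 3.79) in all 35. The number of members called from anterior to posterior was 1 and ran from 1 to 2 with a library left out. It was 2 without posterior lateral replicate 1, which added Tbx15, a gene that then met the minimum only through its anterior libraries. For anterior lateral against medial palate it ran from 0 to 1, with Tbx15 added without anterior lateral replicate 1. Over the 8 compartments 2 members were called, and 1 with no minimum, with the replicate block or with run as a covariate, and 1 to 3 with a library left out. Posterior against anterior within compartments gave 3 members, 1 with no minimum and 1 to 3 with a library left out. In the other comparisons the count was 0 throughout.

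Differences that turned sign had not passed in any of these settings. For anterior lateral against medial palate Tbx2 and Tbx3 were 0.21 and 0.29 with run, and Tbx3 was 0.04 without anterior lateral replicate 1. For posterior lateral against medial palate Tbx3 was 0.22 with run and Tbx18 0.78 without posterior lateral replicate 2. For anterior oral against nasal palate Tbx3 was 0.31 without anterior oral replicate 1, also less both doubtful libraries. In nasal palate the posterior minus anterior difference of Tbx3 was -0.07 with centring, -0.03 with quantile normalization, -0.10 with run, -0.01 without anterior nasal replicate 1 and -0.09 without posterior nasal replicate 1. In medial palate that of Tbx18 was -0.11 without posterior medial replicate 2, also less both libraries. The oral-nasal change of Tbx15 was 0.07 with a pseudocount of 1, 0.08 with run, 0.14 without anterior oral replicate 1 and less both libraries, 0.02 without anterior nasal replicate 1, 0.24 without posterior oral replicate 2 and 0.10 without posterior nasal replicate 3. Over all libraries left out in turn, Tbx3 ran from -0.22 to 0.04, Tbx18 from -0.53 to 0.78, Tbx3 from -0.44 to 0.31, Tbx3 in nasal palate from -0.09 to 0.19, Tbx18 in medial palate from -0.11 to 0.58, and Tbx15 from -0.34 to 0.24, in the order given. The cause was not tested.

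The rule that every pair of libraries with the same replicate number should be above 0.1 was not met. It is too strict to tell whether replicate numbers paired the samples. Deviations of libraries with the same number had a median r of 0.04, and 28 of 84 pairs were above 0.1, against a median of -0.02 and 30 of 168 for libraries with different numbers. The replicate block ended the calls of Tbx2 over the 8 compartments (adjusted p = 0.0623) and of Tbx22 (1.69, 0.0765) and Tbx18 (-2.76, 0.0668) in nasal palate. The number of all genes called varied with the setting, from 155 to 564 from anterior to posterior, 0 to 318 for anterior lateral against medial, 11 to 143 for posterior oral against nasal, 177 to 917 over the 8 compartments, 15 to 243 in lateral, 13 to 73 in oral and 34 to 850 in nasal palate, and, with a library left out, 99 to 1007 in medial palate. Depth limits Tbx20 most, with a median of 2 reads.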

Other observations

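Among the other 9 T-box genes of the table, Mga, which joins a T-box domain to a partner domain for Max, was high and even, at 24.6 to 39.2 RPKM. Its log2 difference from anterior to posterior palate was -0.04 (95% confidence interval -0.19 to 0.12, limma adjusted p = 0.866). It was the only one of the 9 above the minimum of any comparison.

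The gene T (Brachyury), a mesoderm and notochord factor, was at 0 to 9.54 RPKM. Its anterior libraries had a median of 1.32 RPKM and 7 of 13 were at 1 RPKM or more, while the posterior ones had a median of 0.467 and a highest value of 0.988. The anterior compartments differed, with 0.0329 to 0.452 RPKM in medial and 0 to 3.21 in nasal libraries. Anterior lateral libraries had 0.877 to 4.55 RPKM and anterior oral ones 1.51 to 9.54. The highest library was anterior oral replicate 1, 1 of those least like the others. Tbx4, the hindlimb relative of Tbx5, was at 0.136 to 2.77 RPKM. Tbx6 reached 2.04, Tbx10 0.641, Tbr1 1.12 and Eomes 1.02 RPKM. Tbx19 was listed at 0 in 18 libraries and reached 4.43 RPKM in anterior nasal replicate 4, and Tbx21 was listed at 0 in 16 and reached 1.74 in anterior nasal replicate 1. That replicate also held the highest Tbx5 and Tbr1.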
